A study of Mus musculus with 18 samples.

Results

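These sites are places where the homeodomain factor Pitx1 was mapped in the embryonic mouse hindlimb bud, inside the body of a protein-coding gene, with no mapped binding of the forelimb factor Tbx5 nearby. They were chosen by 4 conditions. The summit, the highest point of a peak, stood in the long deposited Pitx1 list and also in a second, shorter Pitx1 list. It lay inside a protein-coding gene, over 1 kb from both ends of every protein-coding gene, and no summit of the Tbx5 list lay within 1000 bp. Of 54941 Pitx1 summits, 17783 were in the second list, 7739 of those lay deep inside genes, and 6424 met every condition. That is 36.1% of the second list (95% interval 35.4 to 36.8) and 11.7% of the long one. Over both factors the series gave 65214 summits.

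Both maps come from chromatin immunoprecipitation followed by sequencing on limb buds of wild type mouse embryos of the CD1 strain. Pitx1 was mapped in e11.5 hindlimb with the antibody homemade (960A), and Tbx5 in e10.5 forelimb with the antibody homemade (NP1723). Limb buds are mixtures of mesenchyme, ectoderm, muscle precursors, vessels and nerve, and the labels do not say that any cell type was sorted. The maps differ in factor, limb, stage and antibody at once, and each is 1 library, so no value here has a replicate error and no difference between conditions was tested. Each interval given below is an exact 95% interval that covers the counting of sites alone. The score is the authors' −log10 q-value of the peak. Read depth is unknown, and a site without Tbx5 is a site without a listed Tbx5 summit at the depth and in the limb mapped.

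Pitx1 is a bicoid-type homeodomain protein that is made in the hindlimb and not in the early forelimb, and it is known for giving the hindlimb its form. Proteins of this type bind the word TAATCC, whose reverse complement is GGATTA. Tbx5 is a T-box factor needed for forelimb outgrowth. Enhancers of limb genes often lie far from a promoter, and introns of long genes are a common place for them. Such an intron can belong to the gene that is controlled or to its neighbour, and nothing in a binding map says which.

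Few sequences under these sites could be read, since only windows around annotated starts were at hand. Inside a 300-base window, 250 bases before to 50 after an annotated start within the host gene, fell 115 sites. Of these starts, 90 belonged to the host itself, as alternative starts, and 25 to a long noncoding RNA. The windows below are the 6 with the highest scores among those with TAATCC or GGATTA in the 250 bases before the start, and one window without the word, from the Dnm3 gene, which returns later. Each is given from 5′ to 3′ on the strand of the transcript, from RefSeq GRCm38.p6, with every TAATCC or GGATTA in capitals.
Mettl3 (chr14:52305125-52305374, minus strand): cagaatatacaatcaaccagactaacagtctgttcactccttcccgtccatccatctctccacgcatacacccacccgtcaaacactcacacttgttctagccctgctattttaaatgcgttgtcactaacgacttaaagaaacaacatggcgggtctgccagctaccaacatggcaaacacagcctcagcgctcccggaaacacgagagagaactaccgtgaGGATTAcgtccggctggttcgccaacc
Airn, in Igf2r (chr17:12741061-12741310, plus strand): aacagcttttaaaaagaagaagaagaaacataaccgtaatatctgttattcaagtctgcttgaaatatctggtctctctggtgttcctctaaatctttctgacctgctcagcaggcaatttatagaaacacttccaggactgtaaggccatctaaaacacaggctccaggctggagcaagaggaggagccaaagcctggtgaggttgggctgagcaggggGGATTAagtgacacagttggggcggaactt
Cntnap2 (chr6:47244146-47244395, plus strand): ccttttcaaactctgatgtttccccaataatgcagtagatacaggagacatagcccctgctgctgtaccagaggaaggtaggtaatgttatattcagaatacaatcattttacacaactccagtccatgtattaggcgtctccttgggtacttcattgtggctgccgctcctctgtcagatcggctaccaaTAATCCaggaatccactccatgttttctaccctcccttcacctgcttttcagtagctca
Gm52250, in Fgf12 (chr16:28237908-28238157, plus strand): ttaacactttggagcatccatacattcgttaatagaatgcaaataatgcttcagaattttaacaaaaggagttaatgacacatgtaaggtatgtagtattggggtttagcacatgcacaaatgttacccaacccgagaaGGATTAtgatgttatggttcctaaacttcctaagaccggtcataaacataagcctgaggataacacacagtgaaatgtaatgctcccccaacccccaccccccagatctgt
Gm29695, in Lemd1 (chr1:132200836-132201085, plus strand): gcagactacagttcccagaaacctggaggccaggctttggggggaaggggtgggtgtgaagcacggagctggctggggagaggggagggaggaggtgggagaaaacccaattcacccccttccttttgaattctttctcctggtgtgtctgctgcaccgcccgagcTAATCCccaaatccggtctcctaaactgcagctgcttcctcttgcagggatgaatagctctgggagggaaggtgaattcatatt
Gm36878, in Hoxc9 (chr15:102981064-102981313, minus strand): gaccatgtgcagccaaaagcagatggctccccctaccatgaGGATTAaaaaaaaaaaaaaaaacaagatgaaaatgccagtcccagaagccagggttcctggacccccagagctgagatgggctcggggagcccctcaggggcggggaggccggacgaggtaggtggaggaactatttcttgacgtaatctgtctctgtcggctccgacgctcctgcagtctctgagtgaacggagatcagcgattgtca
Dnm3os, in Dnm3 (chr1:162217373-162217622, plus strand): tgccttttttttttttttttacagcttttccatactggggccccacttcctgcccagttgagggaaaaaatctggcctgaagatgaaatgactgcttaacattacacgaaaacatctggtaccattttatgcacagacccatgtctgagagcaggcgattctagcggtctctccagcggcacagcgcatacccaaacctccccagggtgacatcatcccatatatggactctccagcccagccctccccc

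In the printed windows with the word, the summit lay between 2.5 and 34.5 bp from it. Windows were chosen to hold both, which by itself keeps this distance short. In the window of Mettl3, which encodes the enzyme that methylates adenosine in messenger RNA, the centre of the word was 5.5 bp from a summit with a score of 415. At Airn, the noncoding RNA that starts inside Igf2r and runs antisense to it, the distance was 20.5 bp and the score 115. At the inner start of Cntnap2, a neuronal adhesion gene, it was 34.5 bp with a score of 63.0. At Gm36878, inside the homeobox gene Hoxc9, one of the list of hindlimb identity used below, it was 2.5 bp with a score of 46.2. The remaining distances were 23.5 bp at Gm52250, with a score of 52.3, and 5.5 bp at Gm29695, with a score of 51.3. The Dnm3os summit, with a score of 85.7, stood 75 bp before its start, and the printed window does not hold these letters.

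Across all 115 windows, 31 held TAATCC on either strand, which is 27% (19.1 to 36). Among all 32851 windows of the table the share was 7.06%. Windows with a Tbx5 summit held it in 4.42% of 339 cases (2.5 to 7.19). For Pitx1-only sites at gene ends the share was 21.9% of 480 windows (18.3 to 25.8). For deep Pitx1 sites with Tbx5 within 1 kb it was 35.7% of only 14 windows (12.8 to 64.9). Among windows in the middle band of GC content, between the quartiles of the 115, the share was 31.1% of 61 (19.9 to 44.3) against 7.36% of all 9875. The interval of the 115 windows lies above the share of all windows. It overlaps those of the sites at gene ends and of the deep sites with Tbx5, so the word was not particular to sites without Tbx5. In the 31 windows, the word nearest to the summit was a median of 34.5 bp away, and 18 windows had it within 50 bp. The window length limits these distances, and no background distance was computed. The median score was 22.2 with the word and 17.4 without it. The 6 other words searched on both strands were less far from the share of all windows, although CAGCTG stood apart in the middle GC band, in 34.4% of 61 (22.7 to 47.7) against 20.3% of all 9875. GGGCGG was in 34.4% there against 24.2%, inside its interval of 22.7 to 47.7. The general homeodomain word TAATTA was in 4.35% of the 115 windows against 5.29% of all, the T-box core AGGTGT in 8.70% against 13.7%, and TGACAG, the word of Meis-type partners, in 19.1% against 19.2%. CAGCTG, an E-box word, was in 22.6% against 16.3%, TGANTCA, the AP-1 word, in 4.35% against 7.81%, and GGGCGG, the Sp-type word, in 33.9% against 35.7%. TAATCC and TAATTA share their first letters, and a match to one is never a match to the other. A match is a description of letters and not of a bound site, and windows at starts are a small and particular subset of the 6424 sites.

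Scores of the sites were broad and skewed. The median score was 17.4, with quartiles of 8.90 and 35.4, a lowest value of 1.64 and a highest of 566, and 4.98% of the sites scored at least 100. The 1315 sites deep inside genes with a Tbx5 summit within 1000 bp had a median of 31.7, with quartiles of 15.8 and 64.1, and 13.9% of them scored at least 100. The intervals of the 2 medians were 16.6 to 18.1 and 29.9 to 34.5. They cover the spread of sites within 1 Pitx1 library, and the difference was not tested. Pitx1-only sites elsewhere scored much like those deep inside genes, with medians of 15.8 for the 1404 at gene ends, 17.4 for the 3710 between genes and 19.7 for the 3112 in gene deserts, over 100 kb from any gene. Membership of the second list went with higher scores, so these levels are in part set by the choice. The 14453 Pitx1-only summits deep inside genes that the second list leaves out had a median of 4.84. The second list kept 30.8% of the Pitx1-only summits deep inside genes and 54.1% of those with Tbx5 nearby.

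**Figure D1:**
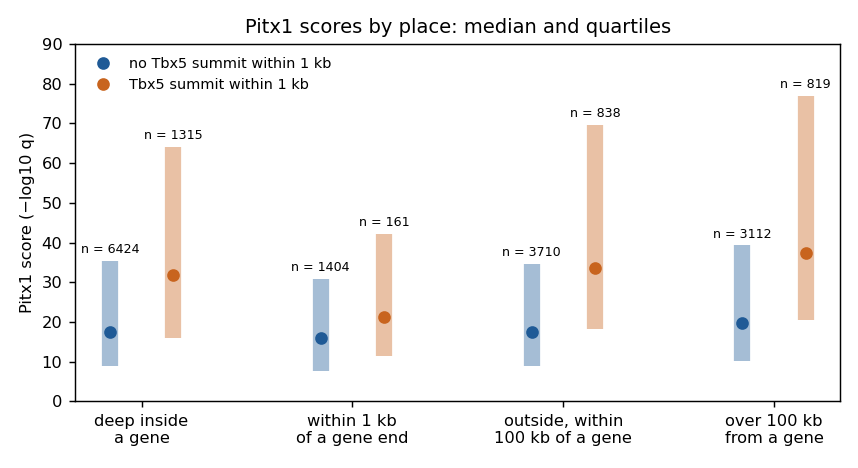
Pitx1 score (−log10 q, vertical axis) of second-list sites in 4 kinds of place, without (blue) and with (orange) a Tbx5 summit within 1 kb; points are medians, bars run from the lower to the upper quartile, and n is the number of sites. In each place the orange median lies above the blue one, at 31.7 against 17.4 deep inside genes.

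The median score was higher in the bands up to 1000 bp from a Tbx5 summit and changed little in the bands beyond. The bands were made to meet at the limit that defines the sites. They cannot place the fall more closely than between 200 bp and 2 kb. Deep inside genes the median was 31.7 for 996 sites with a Tbx5 summit closer than 200 bp and 32.7 for 319 sites from 200 to 1000 bp. It was 16.6 for the 179 sites from 1 to 2 kb, 19.7 from 2 to 5 kb, 19.7 from 5 to 20 kb, 17.4 from 20 to 100 kb and 15.8 beyond 100 kb. Sites just inside the limit were one in Dnm3, 1003 bp from a Tbx5 summit with a score of 250, and one in Dym at 1012 bp with a score of 51.3. Sites just outside it were in Klhl32 and in Zfhx3, both at 1000 bp, with scores of 5.37 and 16.6. At the other limit, sites 1002 bp from a gene end in Jade3 (score 3.35) and 1003 bp in Alx1 (score 32.7) were kept. Sites at 994 bp in Slc16a14 (23.8) and 996 bp in Alad (28.1) were not.

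The distance to the nearest Tbx5 summit varied widely. Its median was 47.7 kb, with quartiles of 16.0 and 128 kb. Of the sites, 8.98% had a Tbx5 summit within 5 kb, 51.5% within 50 kb and 69.2% within 100 kb, which leaves 1976 sites beyond 100 kb. Of all second-list sites deep inside genes, 17.0% (16.2 to 17.8) had Tbx5 within 1000 bp. The same share was 10.3% (8.83 to 11.9) at gene ends, 18.4% (17.3 to 19.6) between genes and 20.8% (19.6 to 22.1) in deserts.

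The strongest sites sat in genes of unlike function. The highest score, 566, the 8th of the long list (ties share a rank), was at chromosome 19 position 38298501 in Lgi1, which encodes a secreted neuronal protein. A site in Spock1, a gene for a matrix proteoglycan, scored 538 at chromosome 13 position 57672230. Maml3, a coactivator of Notch signalling, held one of 498 at chromosome 3 position 51908687. Auts2, a neurodevelopmental gene, had 474 at chromosome 5 position 132084045, and Tenm3, a teneurin adhesion gene, had 470 at chromosome 8 position 48655872. These 5 sites lay between 8.50 and 98.8 kb from the nearest Tbx5 summit.

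The next 5 included Sh3pxd2a, a scaffold gene of invasive cell feet, with 435 at chromosome 19 position 47427955, and Col8a1, a collagen gene, with 418 at chromosome 16 position 57694939. Mettl3 followed with 415 at chromosome 14 position 52305143, then Nfib, a nuclear factor I gene, with 384 at chromosome 4 position 82304459, and Stx18, a membrane fusion gene, with 379 at chromosome 5 position 38106372. The second list's own further score, which the sources used here do not explain, was 235 at Mettl3 and between 541 and 1903 at the other 9. Of these 10 hosts, Auts2 and Tenm3 were also among the 10 with the most sites.

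The sites lay in 2865 of 21887 protein-coding genes, or 13.1%. Only 19256 of these genes have any sequence over 1 kb from all gene ends, and the others could not hold a site. A gene here runs from its lowest to its highest annotated coordinate, so exon, intron and untranslated positions are not separated. Of the hosts, 1631 held 1 site, 1234 held 2 or more, 315 held 5 or more, 73 held 10 or more and 4 held 20 or more. The 315 hosts with 5 or more held 2462 of the sites. Hosts were long, with a median length of 106 kb (quartiles 46.8 and 215), against 17.2 kb for all protein-coding genes. Among 227 genes over 500 kb, 202 were hosts. Only 50 sites lay in more than 1 gene.

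Per length, the sites were spread at 6.50 per Mb (6.34 to 6.66) over 988 Mb of gene interior, the stretch of genes over 1 kb from all gene ends. Sites with Tbx5 nearby stood at 1.33 per Mb (1.26 to 1.40). Density was not even across gene lengths. It was 5.57 per Mb (4.52 to 6.79) in genes up to 10 kb, fell to 3.84 (3.30 to 4.44) from 10 to 20 kb and 3.98 (3.66 to 4.31) from 20 to 50 kb, and was 5.30 (4.96 to 5.66) from 50 to 100 kb. It reached 7.62 (7.23 to 8.02) from 100 to 200 kb and 8.77 (8.39 to 9.17) from 200 to 500 kb, then was 7.25 (6.76 to 7.77) from 500 to 1000 kb and 5.29 (4.80 to 5.82) over 1000 kb. By the second list the classes from 100 to 1000 kb are densest. With the long Pitx1 list the order changes, and genes up to 10 kb come first with 32.8 per Mb, against 26.0 from 200 to 500 kb and 15.3 over 1000 kb. Genes over 100 kb held 72.6% of the sites (71.5 to 73.7) and 61.4% of the interior.

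**Figure D2:**
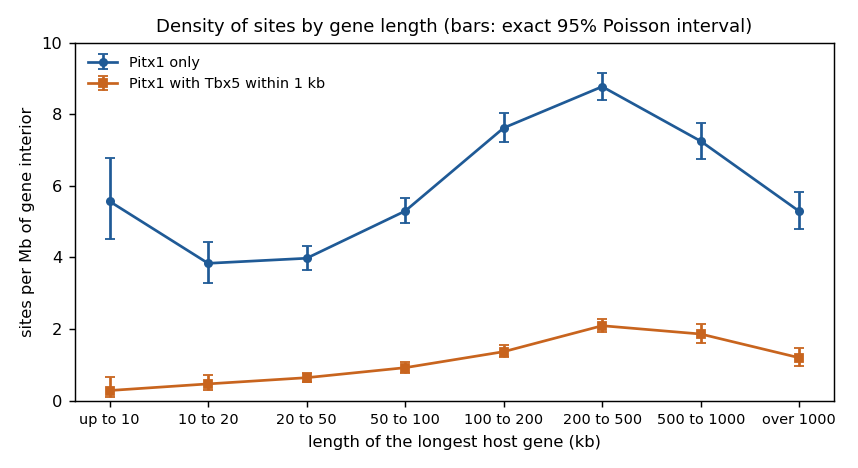
Sites per Mb of gene interior (vertical axis) in 8 classes of gene length (horizontal axis, kb), for Pitx1-only sites (blue) and for Pitx1 sites with Tbx5 within 1 kb (orange), with exact 95% Poisson intervals. Blue peaks at 8.77 and orange at 2.09 per Mb in genes of 200 to 500 kb.

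The share of sites with Tbx5 nearby changed with gene length as well. It was 4.85% in genes up to 10 kb, 10.9% from 10 to 20 kb, 13.9% from 20 to 50 kb, 14.8% from 50 to 100 kb, 15.2% from 100 to 200 kb, 19.3% from 200 to 500 kb, 20.4% from 500 to 1000 kb and 18.5% over 1000 kb. The median score of the Pitx1-only sites stayed between 15.5 and 18.9 in every class. Tbx5 summits deep inside genes were also densest from 200 to 500 kb, at 6.04 per Mb (5.72 to 6.36), and least dense from 20 to 50 kb, at 2.71 (2.45 to 2.98).

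Auts2 held the most sites, 35 in 1104 kb of interior, which is 31.7 per Mb (22.1 to 44.1). Their scores ran from 2.03 to 474 with a median of 23.0, and 11 more Pitx1 sites in the gene had Tbx5 within 1000 bp. Tenm3 held 24 (18.5 per Mb) and Macrod2, an ADP-ribose hydrolase gene, 22 (11.05 per Mb). Nfia, a nuclear factor I gene active in cartilage and glia, held 20 (37.1 per Mb). Ptprg, a receptor phosphatase, and Rora, a nuclear receptor, held 19 each, at 27.7 and 25.9 per Mb. Dnm3, Slit3, Zfhx3 and Wwox held 18 each, at 36.4, 30.8, 26.5 and 19.8 per Mb, and Rbms3, an RNA-binding protein gene, equalled them with 18 at 17.1 per Mb. All 11 genes stood above the 6.50 per Mb of all gene interiors, a comparison in which the choice by number plays a part.

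**Figure D3:**
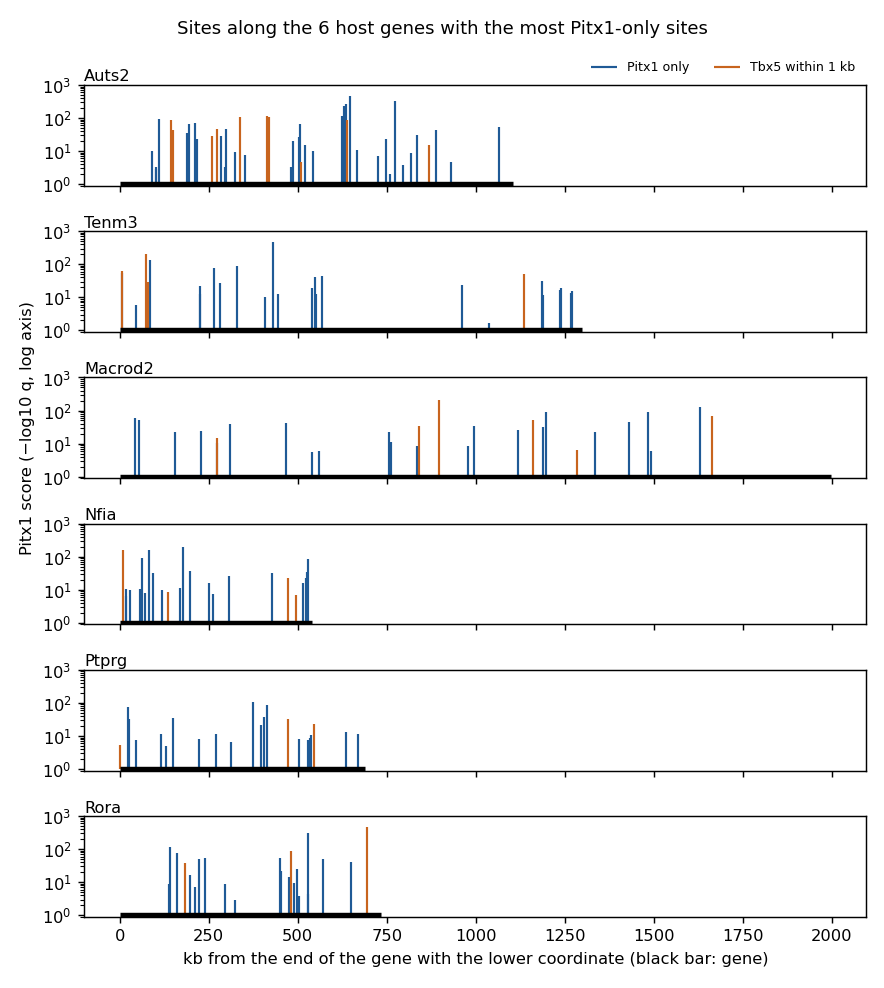
Score of each site (vertical axis, −log10 q, log axis) along the 6 host genes with the most sites (horizontal axis, kb from the end with the lower coordinate; black bars are the genes), for Pitx1-only sites (blue) and Pitx1 sites with Tbx5 within 1 kb (orange). The highest blue line in Auts2 reaches 474 and that in Tenm3 470.

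Dnm3 stood out among these hosts by its scores. It encodes a dynamin, a membrane-cutting GTPase, and on its other strand the noncoding RNA Dnm3os, the precursor of miR-199a and miR-214, which is known in skeletal development. Its 18 sites had a median score of 60.4, and the other 10 hosts just named had medians between 11.54 and 25.5. A group of 4 sites lay within 8.50 kb at chromosome 1 positions 162015630 to 162024134, with scores of 83.4, 250, 115 and 10.9. The site with 250 is the one 1003 bp from a Tbx5 summit, just past the limit. Further sites with scores of 103, 88.1, 85.7 and 89.3 lay at positions 162153289, 162207534, 162217548 and 162282119. The site at 162217548 is the one at the start of Dnm3os shown above.

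That Dnm3os site lay 266 bp from Mir199a-2, one of the genes that make miR-199a. The other, Mir199a-1, lies in Dnm2, also a dynamin gene, and had a site 350 bp away with a score of 28.1 at chromosome 9 position 21496914. Both genes give the same mature sequences, shown from RefSeq GRCm38.p6 with the seed, bases 2 to 8, in capitals.
miR-199a-5p: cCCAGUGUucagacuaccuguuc
miR-199a-3p: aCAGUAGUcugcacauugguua
In all, 10 miRNA genes had a site within 1 kb, and 715 miRNA genes start deep inside protein-coding genes. The 10 equal 1.40% of the 715, near the 1.27% of gene interior that lies within 1 kb of a site, so the count is at the background. The 10 include Mir1907 in Trps1 (score 17.4), Mir5129 in Zeb2 (32.7) and Mir6976 in Srf (33.6). They also include Mir599 and Mir875, which share 1 site in Vps13b (14.4), and Mir1947 (9.54), Mir8100 (7.67) and Mir449c (7.67).

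By density, shorter genes came first, and they differ in function. Among hosts with at least 50 kb of interior and 5 sites, Il17rd, an inhibitor of FGF signalling, led with 7 sites, 105.5 per Mb (42.4 to 217). Bdnf, a neurotrophin, followed with 5 (99.3), Ptch1, the Hedgehog receptor, with 6 (95), Vcan, a matrix proteoglycan of limb mesenchyme, with 7 (81.7), and Zfp608, a zinc finger gene, with 8 (78.0). Smad6, an inhibitor of BMP signalling, held 5 (74.6), Hmga2, a chromatin protein of growing cells, 8 (70.7), and Msrb3, an oxidation repair gene, 8 (69.0). Slc7a11, a cystine transporter, held 9 (68.1) and Cpvl, a carboxypeptidase gene, 7 (67.6). With so few sites per gene the intervals are wide, and the lowest bound among these 10 genes was 24.2 per Mb, at Smad6. The genes were chosen for their density, and the minimum of 5 sites lets shorter genes lead. No comparison with the mean density is therefore drawn from these bounds.

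**Figure D4:**
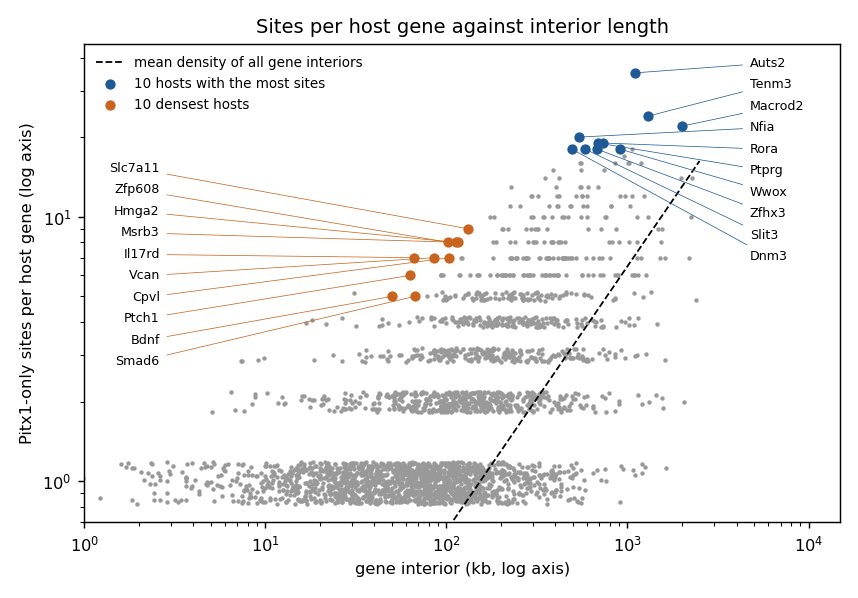
Pitx1-only sites in each host gene (vertical axis, log axis, with small random shifts below 6 sites) against gene interior (horizontal axis, kb, log axis); the dashed line is the mean density of all gene interiors. The 10 hosts with the most sites (blue) and the 10 densest (orange) lie above the line, from Auts2 with 35 sites to Bdnf and Smad6 with 5. Both sets were chosen by their number or density of sites.

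In Ptch1 the 6 sites ran from 4.28 to 44.98 kb after the 5′ end. Their scores were 12.2, 43.2, 17.4, 10.9, 5.37 and 48.2 in that order, and the highest, at chromosome 13 position 63528482, lay 2.91 kb from a Tbx5 summit. The other 5 were 16.4 kb or more from one. Vcan, Smad6 and Bdnf held no Tbx5 summit at all.

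Very long genes without a site also exist. The 5 longest were Il1rapl1 (1375 kb), Il1rapl2 (1278 kb) and Frmpd4 (1106 kb) on chromosome X, Epha6 (969 kb) and Sntg1 (942 kb), which encode synaptic adhesion and scaffold proteins and a guidance receptor. They were chosen for their length and their count of 0, so no comparison with the mean density is drawn from them. Without Tbx5, the long Pitx1 list held 0 summits deep inside Il1rapl1, 5 in Il1rapl2, 4 in Frmpd4, 2 in Epha6 and 1 in Sntg1.

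Chromosome X stood apart. Its 86 sites gave 1.97 per Mb (1.57 to 2.43), while the autosomes ran from 5.93 on chromosome 7 to 8.26 on chromosome 18. The Tbx5 list held 27 summits on X, 2 of them deep inside genes, and 0 of the X sites of the second list deep inside genes had Tbx5 within 1000 bp. Peaks are numbered in genome order, and 4.49% of the 601 Tbx5 numbers that X spans were present, against 54.1 to 78.6% on the autosomes. For Pitx1 the share was 73.4% on X and 75 to 80.8% on the autosomes. On X the absence of a Tbx5 summit therefore carries little information, which touches the hosts there, such as Bcor and Dmd below. Without X the density was 6.71 per Mb.

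Sites were not placed toward one end of their hosts. For 4978 sites in 1 host of known strand, each of 10 equal parts of the gene from 5′ to 3′ held between 8.50 and 10.6% of them, with the lowest share in the part at the 3′ end. The median distance to the nearest gene end was 39.3 kb, with quartiles of 13.5 and 96.2 kb. The median score was 15.8 from 1 to 5 kb from a gene end and between 16.6 and 18.1 in every band beyond. On the chromosomes of the promoter table, which leaves out chromosome 18, lay 6161 of the sites. Of these, 5.19% (4.65 to 5.78) lay within 1 kb of an annotated start inside the host, against 1.30% of the interior. The median score of those near a start, 15.1, was not above the 17.4 of the rest. Of 1272 deep sites with Tbx5 nearby on those chromosomes, 3.54% (2.59 to 4.71) lay as close to a start. Inside long noncoding RNA genes lay 6.04% (5.47 to 6.65) of the sites, against 4.29% of the interior.

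Some sites came in groups. Of the sites, 15.9% (15 to 16.8) had another within 5 kb, and the median distance to the next was 31.4 kb. Deep sites with Tbx5 nearby were sparser, at 1.33 against 6.50 per Mb. Of those, 10.4% (8.82 to 12.2) had another of their kind within 5 kb, with a median distance of 110 kb. Such shares rise with density, and no background was computed, so grouping beyond that was not tested. Linking sites up to 5 kb apart gave 58 groups of 3 or more with 183 sites in all, 9 groups of 4 and 0 of 5 or more. The groups of 4 lay in Dnm3, Notch2, Kif26b, Ngfr, Arhgef28, Igdcc3, Lhx9, Sall3 and Slc7a11. In Notch2, which encodes a Notch receptor, the 4 scores over 12.1 kb were 16.6, 3.83, 141 and 34.5. In Lhx9, a LIM homeobox gene of the limb bud, the 4 sites within 8.16 kb scored 7.67, 8.90, 11.54 and 14.4. In Sall3, a zinc finger gene of limb outgrowth, those within 9.13 kb scored 10.9, 8.90, 4.84 and 12.2. All 8 sites of the Lhx9 and Sall3 groups scored below the median of 17.4, as did 1 of the 4 in Dnm3.

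Lists of genes showed where the sites were dense. The 11 lists hold 338 genes, chosen with earlier results of these data known, and 8 of the 11 had a density above that of all gene interiors. One of the 8, endothelium and blood, has an interval that spans 6.50, and its density falls to 0.935 times that of all genes in the higher-scoring part of the second list. Of the 7 genes of hindlimb identity, 4 were hosts, with 7 sites at 96.3 per Mb (38.7 to 198). No Tbx5 summit lay in any of the 7. Their interior is only 0.0727 Mb in all, and 11.7% of all protein-coding genes hold a Tbx5 summit, so this absence says little. Of 52 limb transcription factor genes, 30 were hosts, with 141 sites at 26.0 per Mb (21.9 to 30.7). Of 44 limb signalling genes, 27 were hosts, with 78 sites at 24.9 per Mb (19.7 to 31.0). Of 36 genes of cartilage and bone, 18 were hosts, with 109 sites at 19.4 per Mb (15.9 to 23.3). Each count of hosts reads against the 13.1% of all genes that were hosts, and long genes host more often whatever their list. Hosts made up 1.2% of genes up to 10 kb, 24.3% from 50 to 100 kb, 50.2% from 100 to 200 kb, 75.1% from 200 to 500 kb, 86.9% from 500 to 1000 kb and 94.9% over 1000 kb. Of all genes with at least 50 kb of interior 44.1% were hosts. Of those in the lists, the share was 91.3% of 23 limb transcription factor genes, 89.5% of 19 signalling genes and 77.8% of 18 cartilage and bone genes. It was also above 44.1% in lists not chosen for the limb, with 97.2% of 36 guidance genes, 93.3% of 30 long genes of general function and 77.8% of both the 9 muscle and the 36 synapse genes. Lengths differ between the lists, so these shares were not compared further.

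**Figure D5:**
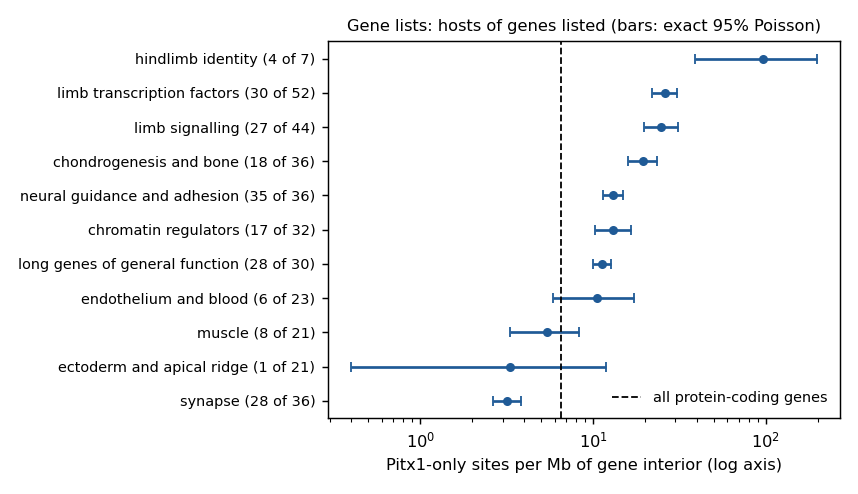
Pitx1-only sites per Mb of gene interior (horizontal axis, log axis) for 11 gene lists, with exact 95% Poisson intervals and, in brackets, the number of hosts of the genes listed; the dashed line is the density of all protein-coding genes, 6.50 per Mb. Hindlimb identity genes stand at 96.3 and synapse genes at 3.18.

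Other lists were nearer to the mean or below it. Neural guidance and adhesion genes had 230 sites at 13.1 per Mb (11.47 to 14.9), chromatin regulators 72 at 13.1 (10.3 to 16.5) and long genes of general function 268 at 11.3 (9.95 to 12.7). Markers of other cell types of the limb bud ranged widely. Endothelium and blood genes had 15 at 10.54 (5.90 to 17.4), muscle genes 20 at 5.39 (3.29 to 8.33), and ectoderm and apical ridge genes 2 at 3.29 (0.398 to 11.9), both in Tfap2a. Synapse genes, with a median length of 916 kb, had 116 sites at 3.18 (2.62 to 3.81), below the mean although 28 of 36 were hosts. The share of hosts in this list, 77.8%, stood below the 86.9% of all genes of 500 to 1000 kb. On the same basis, Tbx5 summits deep inside genes stood at 4.41 per Mb in all genes. They stood at 23.8 in limb transcription factor, 16.9 in signalling, 17.2 in cartilage and bone, 10.6 in chromatin regulator and 9.29 in guidance genes. Endothelium and blood genes had 7.03, long genes of general function 7.02, muscle genes 3.50 and synapse genes 2.11. On the other side of all genes from their Pitx1-only density were ectoderm and apical ridge genes, at 13.2 from 8 summits, and hindlimb identity genes, at 0.

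Within the hindlimb identity list, Pitx1 itself held 3 sites in an 11.1 kb gene. Their scores were 46.2, 4.32 and 7.67 at chromosome 13 positions 55827583, 55828895 and 55832321, and the nearest Tbx5 summit was 295 kb away. Tbx4, a hindlimb T-box gene, held 2 sites, 7.64 and 24.0 kb after its 5′ end, with scores of 28.1 and 12.9 at chromosome 11 positions 85894005 and 85910341. Hoxc9 held 1, the site shown above. Hoxc10, Hoxc11 and Isl1 held none. Hoxc11 has 0.174 kb of interior, so it could hardly hold a site by this definition.

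Of the limb transcription factor genes, Zfhx3, a homeobox gene, held 18 sites and Ebf1, of mesenchyme and fat precursors, 15 at 38.7 per Mb. Mecom, a zinc finger gene, held 15 at 26.96 per Mb and Pknox2, a homeodomain partner gene, 11 at 43.2, with a median score of 39.3. Mecom also held 11 Pitx1 sites with Tbx5 nearby, Pknox2 3. Tbx5 itself held 1 Pitx1-only site, with a score of 60.8 at chromosome 5 position 119848037, 6.03 kb from a Tbx5 summit.

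Of the signalling genes, Notch2, Ptch1 and Tcf7l2, a Wnt effector, held 6 each. Fgfr2, an FGF receptor of the limb bud, held 5, tied with Bmpr1b, a BMP receptor, and Tcf7l1, also a Wnt effector. The Fgfr2 sites scored 101, 29.9, 27.3, 25.5 and 28.1, all above the median of the sites. Fgf10, the FGF ligand that starts limb outgrowth, held 1 with a score of 21.3, and Bmp4, a BMP ligand, 1 with a score of 82.2. Shh, the ligand of posterior limb identity, held 1 weak site, with a score of 3.35. Among cartilage and bone genes, Nfia held 20, Sox5 17 at 17.9 per Mb, Foxp1 12 at 20.2 per Mb, and Creb5 and Sox6 11 each, at 26.8 and 19.4 per Mb. Sox5 and Sox6 encode partners of Sox9 in cartilage.

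The other lists had these leading hosts, which held less of the sites in the guidance and synapse lists than the rest of the list did. Among guidance genes Tenm3 and Slit3 were followed by Cdh13, a cadherin gene, and Robo1, a Slit receptor, with 16 each, at 13.5 and 15.7 per Mb. Among chromatin regulators Jazf1 held 12 (40.2 per Mb), Hdac9, a deacetylase, 9 (10.4), Jarid2, a Polycomb partner, 8 (42.4) and Setbp1 7 (19.5). Among synapse genes Dlg2, a scaffold, held 14 (7.10 per Mb), Cntnap2 10 (4.47), Kcnma1, a potassium channel, 9 (12.7) and Opcml 8 (7.06). Pax3, the factor of migrating muscle precursors, held 6 of the 20 sites of the muscle list, at 63.9 per Mb, and Dmd, with 2377 kb of interior, held 5. Runx1t1 held 6 and Erg, an endothelial Ets factor, 4 of the 15 sites of the endothelium and blood list.

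Several listed genes with over 50 kb of interior held no Pitx1-only site. Limb genes among them were Aldh1a2, which makes retinoic acid, Lrp6, a Wnt coreceptor, and the transcription factor genes Etv5 and Tshz3. Of the cartilage and bone list they were Acan and Hapln1, of the aggrecan matrix, Col9a1 and Runx3. Of the muscle list they were Eya1 and Mef2c, of the ectoderm list Cdh1, Esrp1, Grhl2 and Trp63, and of the endothelium and blood list Flt1, Itgam, Lyn and Pecam1. Chromatin regulators without a site were Ankrd11, Crebbp, Ep300, Ezh2, Kdm2b, Kdm4c, Kdm6a, Kmt2a, Ncor1, Nsd1 and Smarca4. Synapse genes without one included Dpp6, Gabrg3, Grid1, Grin2a, Grm5, Grm7 and Sntg1, and the rest were Tenm1, Diaph2 and Tnrc18. In a gene with 50 kb of interior the mean density of 6.50 per Mb gives less than 1 site, so a count of 0 in the shorter of these genes is no sign of depletion. Nor does it always mean that Pitx1 was not mapped there. Aldh1a2, Lrp6, Tshz3 and Col9a1 each held 1 second-list Pitx1 site with Tbx5 within 1000 bp, and Runx3 held 2. Etv5, Acan and Hapln1 held no such site.

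A Tbx5 summit lay somewhere inside 1283 of the 2865 hosts, or 44.8%, against 11.7% of all protein-coding genes, which are shorter, and 1582 hosts held none. Among the 315 hosts with 5 or more sites, 23 held no Tbx5 summit, a group singled out after its values were seen. Bcor, a transcriptional corepressor on chromosome X, Fmnl2, an actin regulator, and Vcan were among those with 7, at 57.5, 25.5 and 81.7 per Mb. Dmd, the dystrophin gene on chromosome X, held 5 at 2.1 per Mb. Axin2, a feedback inhibitor of Wnt signalling, held 5 sites in 31.0 kb of interior, 161.5 per Mb (52.4 to 377), with scores of 15.8, 7.07, 4.84, 16.6 and 66.3 from 5′ to 3′. The nearest Tbx5 summit to any of these 5 was 133 kb away. Epha4, a guidance receptor with a part in limb innervation, held 5 with a highest score of 19.7, and Elavl2, an RNA-binding protein gene of neurons, 5 with a lowest score of 39.3.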

How the data were processed

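Chromatin from 1 hindlimb bud sample (Pitx1) and 1 forelimb bud sample (Tbx5) was sequenced as paired-end reads, per the labels. The submitters' processing notes name HOMER, MACS2 (2.1.1.20160309), Bowtie2 (2.2.6) and Bowtie (1.1.2) without their roles, and build mm10. The authors deposited summit positions with a −log10 q-value for each peak. The second Pitx1 list carries a further score, deposited without explanation. The labels list an input sample for each map (not analysed here), and no source used here says whether it was the control for peak calling, nor gives the read depth, any pooling or any filter, so a longer list cannot be read as more binding.

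Summits were placed on protein-coding genes of a RefSeq table of GRCm38.p6, which gives no exons. Strand came from the promoter table, which holds no window on chromosome 18. The gene interior is gene sequence over 1 kb from all protein-coding gene ends. A site in several genes counts for each gene and once in totals; its length class is that of its longest host. Intervals are exact Poisson for densities and exact Clopper-Pearson for shares, at the 95% level, and for medians they come from order statistics. All comparisons are descriptions, since there is 1 library per factor. Counts of motifs around summits were planned and not run, for want of a genome; promoter windows replaced them, with words chosen after the files were seen.

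Named genes are the 10 hosts with the most sites, the 10 densest with at least 50 kb of interior and 5 sites, the 10 sites with the highest score, the 5 longest genes without a site, and up to 4 genes a list, plus listed genes of over 50 kb of interior without a site; a few genes that the rule names are not reported here. Limb genes given with their site scores, hosts without Tbx5, groups of sites, promoter windows and miRNA genes were chosen after values were seen. The members and lists were chosen with earlier results of these data known. Scripts ran in Python 3.11.15 with pandas 2.3.3 and scipy 1.17.1, and were tested on simulated sites.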

Additional observations from a re-analysis of the deposited data

How the results depend on the processing

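Of 52 values under other settings, 35 stayed inside the counting interval of the reported value, or within 1.5 times for counts, and 17 did not. The long Pitx1 list in place of the second gave 20877 sites, 21.1 per Mb, a median score of 6.49, 6044 hosts, 66.6% in genes over 100 kb and 39.9% within 5 kb of another site, with genes up to 10 kb the densest class at 32.8 per Mb. The higher-scoring part of the second list gave 2976 sites, 3.01 per Mb, a median score of 37.3, 1687 hosts, 74.4% in genes over 100 kb and 10.1% within 5 kb. A Tbx5 distance of 200 bp gave 6.82 per Mb, and one of 5000 bp gave 5.92 per Mb and 14.9% within 5 kb. Staying over 5000 bp from gene ends put 78.5% in genes over 100 kb. Leaving out chromosome X, chosen after seeing the data, gave 6.71 per Mb. Ectoderm genes, at 0.506 times the density of all genes, rose to 2.87 times with the long list, and endothelium and blood genes went from 1.62 to 0.935 times with the higher-scoring part. For TAATCC, also chosen after seeing the data, the 250 bases before the start gave 24.3% and the middle GC band 31.1%. No paired analysis was possible because each factor has 1 library. Motif windows of 50 and 200 bp around summits were not run.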
